A study of Mus musculus with 9 samples.

Results

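Müller glia, the principal glial cells of the retina, take up and convert vitamin A compounds (retinoids) for their neighbours, and 8 genes of that work were examined here: Rlbp1, Crabp1, Rgr, Rdh10, Rdh5, Dhrs3, Rdh11 and Aldh1a1. They were chosen by name as retinoid binding proteins, the opsin RGR, retinol dehydrogenases and a retinal dehydrogenase, with no threshold on their values. All 8 were among the 16367 genes listed for sorted cells. In cultured cells 7 of 8 were among the 17035 genes listed, and Rgr was not listed.

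The study sequenced RNA of wild-type mouse cells prepared as Müller glia, in 3 groups of 3 libraries. The first 2 groups were cells taken from neural retinas, freed of pigment epithelium, pooled by 4 and captured on magnetic beads with an antibody against GLAST, a glutamate transporter. Sham animals had a corneal incision without oil. Ocular hypertension (OHT) animals had 1.2 µL of silicone oil injected into each anterior chamber, a model of raised eye pressure. The sources used here do not give the time after injection or the age and strain of these mice. The third group was untreated primary cultures from C57BL/6J pups of postnatal day 8 to 10, grown on gelatin in medium with serum and passaged once confluent. The bead capture enriches cells by 1 surface protein, which astrocytes carry too, and the labels do not say whether the 3 cultures came from separate preparations, so the spread between cultures may be technical.

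Light turns the chromophore of the visual pigments from its cis to its trans form, and a visual cycle turns it back. Pigment epithelium runs the best known form of the cycle, while Müller glia are thought to serve cones through a second one, in which CRALBP, the protein of Rlbp1, binds cis-retinoids and RGR acts as a light-driven isomerase. The same cells oxidise retinol to retinal and retinal to retinoic acid, a ligand of nuclear receptors, and reductases such as DHRS3 turn retinal back into retinol.

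The values are normalised counts, gene read counts divided by 1 factor per library, at depths of 37.8 to 53.6 M reads in sorted libraries and 66.3 to 76.7 M in cultures. Where genes or the separately normalised tables are set side by side, levels are given in ppm, the reads of a gene per M reads of its library. The labelled cell type was checked on 13 Müller glia markers other than the 8 genes and Apoe, a lipid carrier that microglia express too. Their summed level was 4315 to 11337 ppm in sham, 2481 to 4888 ppm in OHT and 2974 to 3686 ppm in culture, where Vim, a filament gene of many cell types, made up 2301 to 3319 ppm. Glul, glutamine synthetase, stood at 495 ppm or more in every sorted library and at 24.9 to 48.2 ppm in the cultures, and Aqp4, the water channel, at 43.1 ppm or more and at 1.93 to 3.13 ppm. The cultures thus carried little Glul and Aqp4, while their sums of the 13 markers lay within the range of OHT. The cultures also held 5924 to 8400 ppm of 8 mural and fibroblast markers, against 118 to 246 ppm in sham and 9.22 to 47.5 ppm in OHT. The 12 microglia and macrophage markers summed to 29685 to 45397 ppm in sham and 43184 to 56659 ppm in OHT. Of these, 6 of 12 were higher in OHT without overlap, against 5.44% of all genes tested. The 12 rod markers lay at 2866 to 27042 ppm in sham and at 999 to 3565 ppm in OHT. Lower in OHT without overlap were 2 of 13 Müller glia, 3 of 12 rod and 1 of 8 mural and fibroblast markers, against 11.4% of all genes. Mitochondrially encoded genes took 14.1 to 19.6% of sham and 2.19 to 6.13% of OHT reads. Between sham and OHT the Müller glia, microglia and rod sums overlapped, while the mural and mitochondrial ones did not. Apart from the ratios to markers given below, the part of these marker groups in the OHT contrast was not tested. In bulk libraries fewer cells of a type and less RNA per cell cannot be told apart.

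Rlbp1 and Dhrs3 were the most abundant members in sorted cells. Their promoters are shown because their log2 differences between OHT and sham had opposite signs. The Rlbp1 groups overlapped, and neither gene passed the test given below. The sequences are the 250 bases before the gene start in RefSeq on GRCm38.p6, where 7 of 8 members had a window, and not on mm39, the build named for these data, and no measurement was placed by coordinates. Capitals mark the only match to a searched motif, in Rlbp1, and the Dhrs3 window held none.

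Rlbp1, chr7:79387028-79387277, minus strand: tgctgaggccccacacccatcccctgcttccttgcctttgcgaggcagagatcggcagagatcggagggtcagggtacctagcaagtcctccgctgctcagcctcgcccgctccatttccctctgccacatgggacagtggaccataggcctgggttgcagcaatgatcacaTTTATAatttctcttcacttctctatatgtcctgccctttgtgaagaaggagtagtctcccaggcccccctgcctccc
Dhrs3, chr4:144892577-144892826, plus strand: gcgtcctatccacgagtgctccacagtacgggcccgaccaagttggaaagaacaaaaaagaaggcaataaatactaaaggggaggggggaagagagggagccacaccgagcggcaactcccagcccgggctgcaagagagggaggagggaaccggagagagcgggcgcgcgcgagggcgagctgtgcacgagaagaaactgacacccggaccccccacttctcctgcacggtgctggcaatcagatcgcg

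The capitals in Rlbp1 are TATAAA read on the opposite strand, beginning 78 bases before the start. TATAAA on either strand was present in 13.6% of all 32851 windows, which span 250 bases before to 50 after a gene start. The Dhrs3 window shown, the first of 3, held 21 CG pairs, and the other two, at later starts, held 10 and 9, against a median of 7 over all windows and 8 in that of Rlbp1. Neither window held AGGTCA or AGTTCA, the half-sites that retinoic acid receptors read, which were found on either strand in 16.3% and 14.0% of windows, nor a direct repeat of them spaced by 1, 2 or 5 bases. Over the 11 windows of the 7 matched genes, there was 1 AGGTCA, in a window of Rdh11, and 1 TAATCC, a motif of CRX and OTX factors found in 7.06% of windows, in that of Rgr. Of the other members, Rgr had no CG pair in its window.

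The comparison of OHT with sham asked how raised eye pressure altered these cells. None of the 8 members passed the test (limma on log2 values, Benjamini-Hochberg over 14403 genes, threshold 0.05), and none did in any alternative fit, where it was tested. Over all genes 0% passed in limma (11.7% at an unadjusted p under 0.05), 0% passed in edgeR and 1.74% in DESeq2. At an unadjusted p under 0.05, 1 member remained, Dhrs3, higher in OHT, where 5.37% of all genes were higher and 6.3% lower. That count depends on the setting: Dhrs3 was not in it under quantile normalisation, either scaling to library totals or a fit without variance trend, nor without sham 2, sham 3 or OHT 1, and with library totals free of mitochondrial genes 4 members were in it, Rlbp1, Rdh10, Rdh11 and Aldh1a1, all lower in OHT. Sham and OHT values did not overlap in 3 of 8 members, of which 1 was higher in OHT and 2 were lower, against 18.4% of all genes, 9.26% higher and 9.18% lower. In ppm the same 3 members did not overlap, where 5.44% of all genes were higher and 11.4% lower. The log2 difference was below 0 in 7 of 8 members and in 7886 of all 14403 genes tested, with medians of -0.77 and -0.12. Under quantile normalisation it was below 0 in 5 of 8 members and in 7133 of the 14403 genes.

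**Figure D1:**
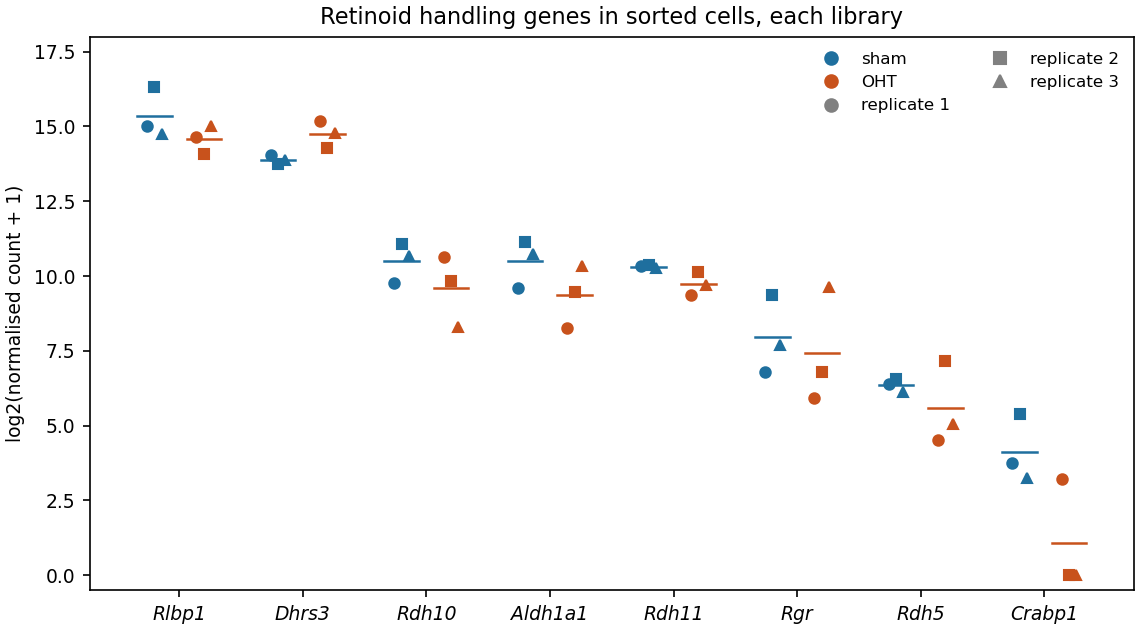
Normalised counts of the 8 retinoid handling genes as log2(value + 1), vertical axis, in each of the 3 sham and 3 OHT libraries. Symbols are libraries and lines are group means. The groups do not overlap in Dhrs3, Rdh11 and Crabp1, and in Rlbp1 sham 2 lies above every other library.

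Among the binding proteins, Rlbp1 had 32994, 82232 and 27329 normalised counts in the 3 sham libraries and 25925, 17166 and 33240 in the 3 OHT libraries. Sham 2 was the highest library by far, and OHT 3 lay above the other 2 sham libraries, so the groups overlap. Rlbp1 differed by -0.78 on the log2 scale (SE 0.45, limma adjusted p = 0.505). Leaving out sham 2 brought it to -0.29. Crabp1, which holds retinoic acid in the cytosol, was the scarcest member, with 12.4, 40.6 and 8.61 normalised counts in sham and 8.29, 0 and 0 in OHT. The highest OHT library, with 6 reads, and the lowest sham library, with 9 reads, differ by 3 reads. The listed 0 values allow up to 0.0560 ppm in OHT 2 and 0.0636 ppm in OHT 3, counting error alone considered. Crabp1 entered the test only through its sham values, and its log2 difference of -3.06 (SE 1.74, limma adjusted p = 0.500) was -1.18 with a pseudocount of 10.

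The pattern of Rlbp1 over the 6 sorted libraries was compared with that of 11531 other genes by the root mean square difference of their centred log2 values. With predicted genes and clone names skipped, the 5 closest genes were Flt1 at 0.18, Aqp4 at 0.18, Bcat1 at 0.18, Abca8a at 0.19 and Glul at 0.19. The median of all genes compared was 0.97. Aqp4, Abca8a and Glul stand on the Müller glia marker list and Flt1 on the endothelial one, while Bcat1 encodes a branched-chain amino acid transaminase. By the same measure Rdh11 differed by 0.66, Aldh1a1 by 0.75, Rdh10 by 0.96, Dhrs3 by 1.02, Rgr by 1.06, Rdh5 by 1.12 and Crabp1 by 1.57. The 3 markers were named because they were among the closest genes, so that the members stood behind them is no separate result. In rank of closeness among all 11531 genes, none skipped, Rdh11 was 986, Aldh1a1 1943, Rdh10 5660, Dhrs3 6650 and Rgr 7337. The libraries are the same for all genes, so these distances describe 6 samples and carry no test.

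Rgr, the opsin, varied most among the members apart from Crabp1. It stood at 110, 656 and 209 normalised counts in sham and 59.4, 109 and 794 in OHT, a 13.4-fold range in which the lowest and the highest library are both OHT. The log2 difference of -0.51 (SE 1.04, limma adjusted p = 0.846) turned to 0.25 without OHT 1, to 0.19 without sham 2 and to 0.19 under quantile normalisation. OHT 3, where Rgr was highest, also had the highest Ttr, a retinol carrier made by pigment epithelium, at 5.35 ppm against 1.52 ppm or less elsewhere, and the highest Rpe65, the isomerase of that tissue, at 1.06 ppm. The 10 pigment epithelium markers together did not peak there, with 52.6 ppm in OHT 3, 162 ppm in OHT 2 and 71.6 ppm in sham 2. Their part in the Rgr value was not tested.

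Of the enzymes that oxidise retinol, Rdh10 had 876, 2150 and 1626 normalised counts in sham and 1581, 923 and 310 in OHT. The groups overlap and OHT 3 is the low library: Rdh10 differed by -0.92 on the log2 scale (SE 0.61, limma adjusted p = 0.550) with it and -0.27 without it. Rdh5, the cis-retinol dehydrogenase best known from pigment epithelium, was scarce, at 83.7, 92.2 and 68.9 normalised counts in sham and 22.1, 143 and 32.1 in OHT. Sham libraries were close together and OHT 2 stood above them all, with a log2 difference of -0.77 (SE 1.06, limma adjusted p = 0.762) that became 0.14 under quantile normalisation. OHT 2 was also the library with the most Dct, Tyrp1 and Mlana, pigment cell genes, at 96.9, 22.1 and 16.6 ppm against 7.58, 2.52 and 0.793 ppm or less in the other sorted libraries. Rpe65 and Ttr were not high there, at 0.187 and 0.112 ppm. The 10 pigment epithelium markers summed to 32.7 to 71.6 ppm in sham and 25.2 to 162 ppm in OHT, none was at 0 in every library of a group, and their part in the Rdh5 values was not tested.

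Of the enzymes that reduce retinal, Dhrs3 had 16971, 13662 and 14903 normalised counts in sham and 37511, 19923 and 28161 in OHT. All 3 OHT libraries lay above all 3 sham libraries. The log2 difference was 0.87 (SE 0.34, unadjusted p = 0.0247, limma adjusted p = 0.377), and the exact two-sided permutation test gave p = 0.1, the smallest that 3 against 3 libraries allow. It was 0.65 to 1.10 with any 1 library left out. With other scalings it was 0.44 (quantile), 0.62 (library totals) and 0.43 (library totals without mitochondrially encoded genes), where the median of all genes moved from -0.12 to 0.01, -0.36 and -0.55. Rdh11, which reduces retinal in photoreceptors and other cells, had 1281, 1316 and 1234 normalised counts in sham and 655, 1113 and 826 in OHT. The sham libraries were within 1.07-fold of each other and all 3 OHT libraries lay below them, with a log2 difference of -0.60 (SE 0.42, limma adjusted p = 0.562, exact permutation p = 0.1). Adjusted over the 8 exact tests, the permutation p of Dhrs3, Rdh11 and Crabp1 was 0.267.

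Aldh1a1, which oxidises retinal to retinoic acid, had 779, 2253 and 1689 normalised counts in sham and 310, 710 and 1298 in OHT. OHT 3 lay between the sham libraries and the groups overlap. Aldh1a1 differed by -1.12 on the log2 scale (SE 0.60, limma adjusted p = 0.480), from -1.61 to -0.58 with any 1 library left out.

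**Figure D2:**
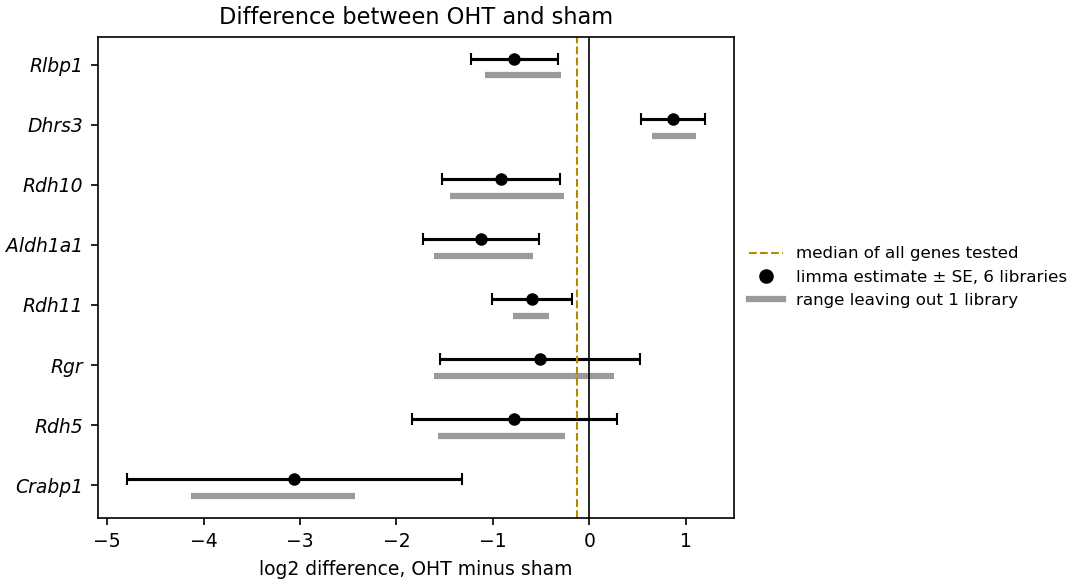
Difference between OHT and sham on the log2(value + 1) scale, horizontal axis, for the 8 members. Points are limma estimates with standard errors over 3 sham and 3 OHT libraries, grey bars span the estimates with 1 library left out, and the dashed line is the median of all genes tested, -0.12. Dhrs3 at 0.87 is the only member above 0, and the bar of Rgr crosses 0.

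To set the members against Müller glia markers, each was divided by the geometric mean of the 13 markers of the same library. Such a ratio needs no scaling between libraries. Which cells of the sorted libraries carry each member was not tested. Rlbp1 followed the markers: its log2 ratio was 2.21, 2.22 and 1.53 in sham and 1.75, 1.79 and 2.40 in OHT. The group means were 1.99 ± 0.40 (SD, n = 3) and 1.98 ± 0.36 (SD, n = 3), with an exact permutation p of 1. The SD of Rlbp1 over the 6 libraries was 0.75 in log2 values and 0.34 in the ratio, while the ratio to 12 microglia and macrophage markers had an SD of 1.15.

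Dhrs3 did not follow them. Its log2 ratio to Müller glia markers was 1.25, -0.37 and 0.65 in sham and 2.29, 2.01 and 2.16 in OHT, a difference of 1.64 without overlap (exact permutation p = 0.1, 0.8 adjusted over the 8 members). Dhrs3 was 1 of 8 members without overlap in this ratio, and in 22.4% of all genes tested the OHT ratios were likewise all higher and in 2.34% all lower. The SD of Dhrs3 over 6 libraries grew from 0.57 in log2 values to 1.04 in the ratio. The SD also grew in Rdh11, from 0.41 to 0.61, and in Rdh5, from 0.99 to 1.14, and fell in the other members. Divided by the microglia and macrophage markers, a comparison chosen after the values were seen, Dhrs3 had an SD of 0.37 and a difference of 0.26 (exact permutation p = 0.4), with log2 ratios of -2.54, -2.20 and -2.22 in sham and -2.17, -2.50 and -1.51 in OHT. With that divisor Rdh11 and Crabp1 were lower in OHT without overlap, as were 16.9% of all genes, and 1.09% were higher. The genes closest to Dhrs3 over the 6 libraries were also looked up after its values were seen, with predicted genes and clone names skipped. They were Atp6v1g1 at 0.022, Utp23 at 0.040, Mrps17 at 0.055, Skap2 at 0.056 and Lpar6 at 0.059, where Rlbp1 stood at 1.02 and the median of all genes at 0.80.

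**Figure D3:**
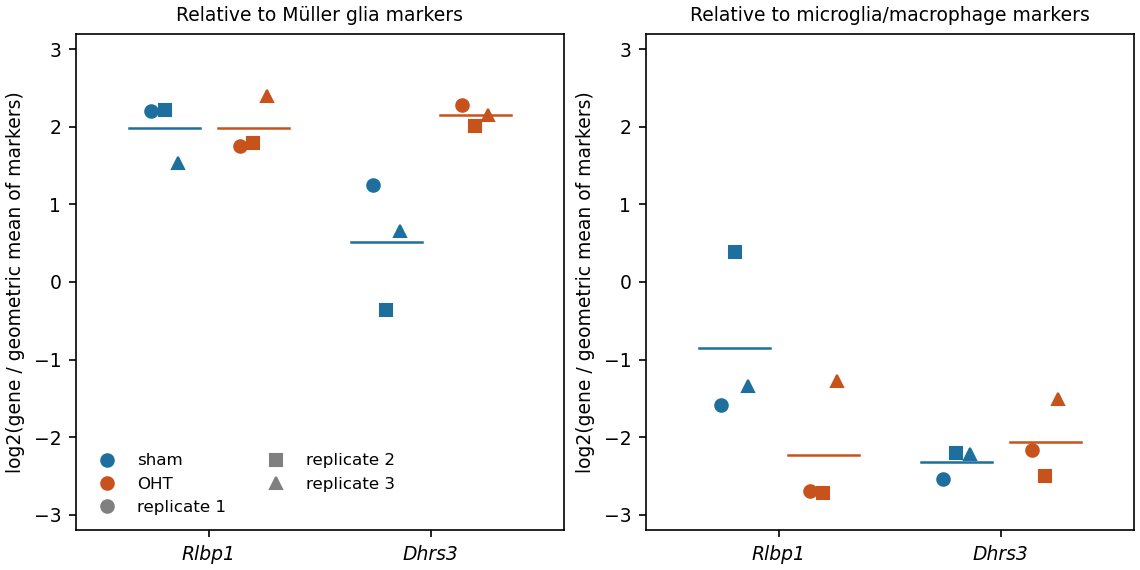
Log2 ratio of Rlbp1 and Dhrs3, vertical axis, to the geometric mean of 13 Müller glia markers (left) and of 12 microglia and macrophage markers (right) in each sham and OHT library. Symbols are libraries and lines are group means. Rlbp1 means are 1.99 and 1.98 on the left, and the Dhrs3 libraries lie closer together on the right, with an SD of 0.37.

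For the other members the ratios to Müller glia markers overlapped between the groups. The log2 difference was -0.15 in Rdh10, -0.35 in Aldh1a1, 0.17 in Rdh11, 0.26 in Rgr and -2.29 in Crabp1, with exact permutation p-values of 0.2 to 1. In Rdh5 the mean ratio was -7.01 ± 0.58 (SD, n = 3) in sham and -7.02 ± 1.71 (SD, n = 3) in OHT. The ratio of Dhrs3, a retinal reductase, to Rdh10, a retinol dehydrogenase, is a pair chosen after the values were seen. Dhrs3 was higher and Rdh10 lower in OHT on average, so the choice favours a separation and the ratio carries no test. It was 19.4, 6.35 and 9.17 in sham and 23.7, 21.6 and 90.8 in OHT, and 2.14, 3.67 and 5.78 in culture. OHT 3 was far above the rest, and the log2 difference of 1.79 was 1.12 without OHT 3.

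Levels between members were compared per kilobase of exon, with lengths from the GENCODE M21 annotation. In sham, Rlbp1 led at 404 ± 266 ppm per kb (SD, n = 3), above Dhrs3 at 129 ± 16.9 ppm per kb (SD, n = 3) in every library. Rdh10 at 9.24, Rdh11 at 9.19 and Aldh1a1 at 7.89 ppm per kb came next and overlap each other, and Rgr at 1.70, Rdh5 at 0.725 and Crabp1 at 0.645 ppm per kb were lowest and overlap too. In OHT, Dhrs3 at 201 ± 50.5 and Rlbp1 at 188 ± 95.5 ppm per kb (SD, n = 3) overlap. Below them stood Rdh11 at 5.50, Rdh10 at 4.26, Aldh1a1 at 3.72, Rgr at 1.70, Rdh5 at 0.526 and Crabp1 at 0.0524 ppm per kb, each overlapping its neighbour in that order. The Rgr mean in OHT rests on OHT 3: it was 8.13 ppm with that library and 1.68 ppm without it, so its place above Rdh5 per kb rests on that library.

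In culture the order was another. Rdh11 led at 16.3 ± 2.68 ppm per kb (SD, n = 3), clear of Aldh1a1 at 9.65 ± 0.462 ppm per kb. Dhrs3 at 8.21 ± 4.04 and Rdh5 at 4.60 ± 1.52 ppm per kb overlap, and Dhrs3 overlaps Aldh1a1. Rdh10 at 1.48 ± 0.177 ppm per kb was separate from both sides, and Crabp1 at 0.865 and Rlbp1 at 0.757 ppm per kb overlap at the bottom.

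The tables of sorted and cultured cells were normalised separately, so levels across them carry no test. Rlbp1 was 2.26, 2.84 and 1.60 ppm in the 3 cultures against 389 ppm or more in every sorted library. The mean over the 6 sorted libraries was 391 times that of the cultures. Dhrs3 was 11.6, 25.3 and 35.2 ppm in culture, with a sorted mean 20.1 times as high, and Rdh10 was 5.43, 6.90 and 6.09 ppm, with a sorted mean 4.57 times as high. These 3 were below every sorted library, as were 16.5% of the 15438 genes in both tables. The 12 microglia and macrophage markers also summed to less in culture than in every sorted library. Their part in the Dhrs3 levels was not tested. Rdh5 at 17.8, 10.2 and 10.7 ppm and Rdh11 at 66.2, 54.4 and 48.0 ppm were above every sorted library, as were 32.5% of genes. Their culture means were 7.36 and 2.21 times the sorted ones. Aldh1a1 at 50.3, 46.1 and 46.6 ppm and Crabp1 at 0.754, 0.753 and 0.573 ppm lay within the range of sorted libraries. Between the 3 cultures the members ranged over 1.15-fold in Aldh1a1 to 2.83-fold in Dhrs3.

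**Figure D4:**
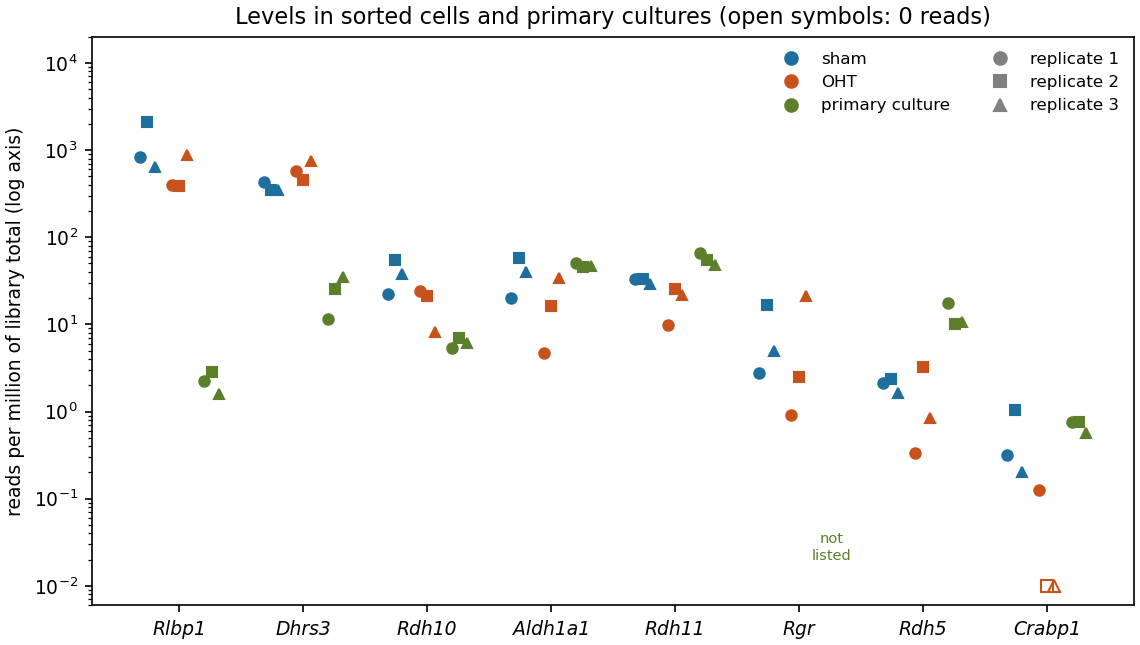
Levels of the 8 members in ppm, vertical log axis, in each sham, OHT and culture library. Open symbols at the bottom are libraries with 0 reads, and Rgr is not listed in the culture table. Rlbp1 lies between 1.60 and 2.84 ppm in culture and at 389 ppm or more in sorted cells, and Rdh5 and Rdh11 lie higher in culture.

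Of 45 other retinoid genes, in lists by role, 38 were listed for sorted cells and 32 had a mean of at least 10 normalised counts and were tested. None passed the limma test, and 5 of 32 had an unadjusted p under 0.05 (2 higher and 3 lower in OHT), where 11.7% of all genes had one. The median log2 difference was -0.64, with 13 above 0 and 19 below, where 6517 of all 14403 genes tested were above and 7886 below. The counts at an unadjusted p under 0.05 were 2 of 6 in retinol uptake and transport, 3 of 9 in the visual cycle of pigment epithelium and photoreceptors, 1 of 7 among other oxidoreductases and 1 of 4 in retinoic acid binding and breakdown, some genes being on more than 1 list. They were 0 of 2 in retinoic acid synthesis, 0 of 6 among receptors and 0 of 6 among retinoic acid responsive genes.

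Fabp5, which carries retinoic acid and fatty acids, had 100.2, 95.9 and 1623 normalised counts in sham and 3301, 3211 and 3116 in OHT. All OHT libraries were above all sham libraries and close together, and sham 3 was the high sham library, with a log2 difference of 3.67 (SE 0.90, unadjusted p = 0.00166, limma adjusted p = 0.332). Without sham 3 the log2 difference was 5.02 and passed the test (limma adjusted p = 0.0219), while on recovered reads it was 2.31 in edgeR and 2.41 in DESeq2 and did not pass (adjusted p = 0.443 and 0.0967). Lower in OHT without overlap were Rdh12, the photoreceptor retinal reductase, by -2.18, Rarg, a retinoic acid receptor, by -1.47, Cyp26a1, which breaks down retinoic acid, by -1.37 and Rbp7, a retinol binding protein, by -3.27 on the log2 scale (limma adjusted p of 0.332, 0.504, 0.496 and 0.468). Cyp26a1 had 316, 669.7 and 253 normalised counts in sham and 64.9, 205 and 227 in OHT, and Rarg had 151, 169 and 219 in sham and 74.6, 89.7 and 37.7 in OHT. The separation of Cyp26a1 is lost in ppm, with 6.00 ppm in OHT 3 and 5.94 ppm in sham 3. Rbp7 was low, with 26.9, 16.6 and 23.0 normalised counts in sham and 0, 0 and 12.02 in OHT. It entered the test through its sham values, and its log2 difference was -1.29 with a pseudocount of 10. Rbp4, the plasma retinol carrier, was likewise lower without overlap but below the filter, at 3.69 to 15.5 normalised counts in sham and at most 1.65 in OHT. Of all genes tested, 9.26% were higher and 9.18% lower in OHT without overlap. In ppm, 1 of the 38 listed genes was higher and 4 were lower without overlap, against 5.44% and 11.4% of all genes tested.

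The most abundant of these genes in sorted cells were Rbp3, Degs1 and Bco2. Rbp3, the retinoid carrier that photoreceptors secrete, had 1512, 15835 and 14792 normalised counts in sham and 162, 930.2 and 1791 in OHT, with a log2 difference of -3.45 (SE 0.96, limma adjusted p = 0.332). Sham 1 and OHT 3 overlap. Sham 1 is also the sham library with the fewest rod marker reads, and OHT 3 the OHT library with the most, 2866 and 3565 ppm. Rdh12 had 829 normalised counts in sham 1 against 4180 and 3712 in the other sham libraries, and 667, 285 and 716 in OHT. The part of rod RNA in both genes was not tested. Neither was called by limma or edgeR (edgeR adjusted p = 0.422 for both), and DESeq2 called both (adjusted p = 0.00228 and 0.0134). Degs1, a desaturase also proposed as a retinol isomerase of Müller glia, had 3612, 4789 and 4347 normalised counts in sham and 3896, 6327 and 5908 in OHT, with overlap (log2 difference 0.32, SE 0.33, limma adjusted p = 0.698). Bco2, which cleaves carotenoids, differed by -0.68 (SE 0.61, limma adjusted p = 0.646).

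In culture Degs1 averaged 400 ppm and Rarg 87.3 ppm, both among the 3 highest of these genes. Of the 35 genes in both tables, 12 were above every sorted library, 7 below and 16 overlapped, next to the 32.5% and 16.5% of all genes given above. Those above included Rarg, at 30.0 times its sorted mean, Aldh1a3, a retinoic acid synthase, at 47.4 times, and Cyp26b1, which breaks down retinoic acid, at 11.4 times. Crabp2, a second retinoic acid binding protein, averaged 18.7 ppm in culture and was at 0 in 4 of the 6 sorted libraries. Those below included Rrh, a further opsin of pigment epithelium, at 0.135 ppm against 28.9 ppm in sham, Bco2 at 0.321 ppm against 67.4 ppm, and Cyp26a1 at 0.384 ppm against 10.4 ppm. Adh1 and Bco1 were at 0 in every sham library.

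**Figure D5:**
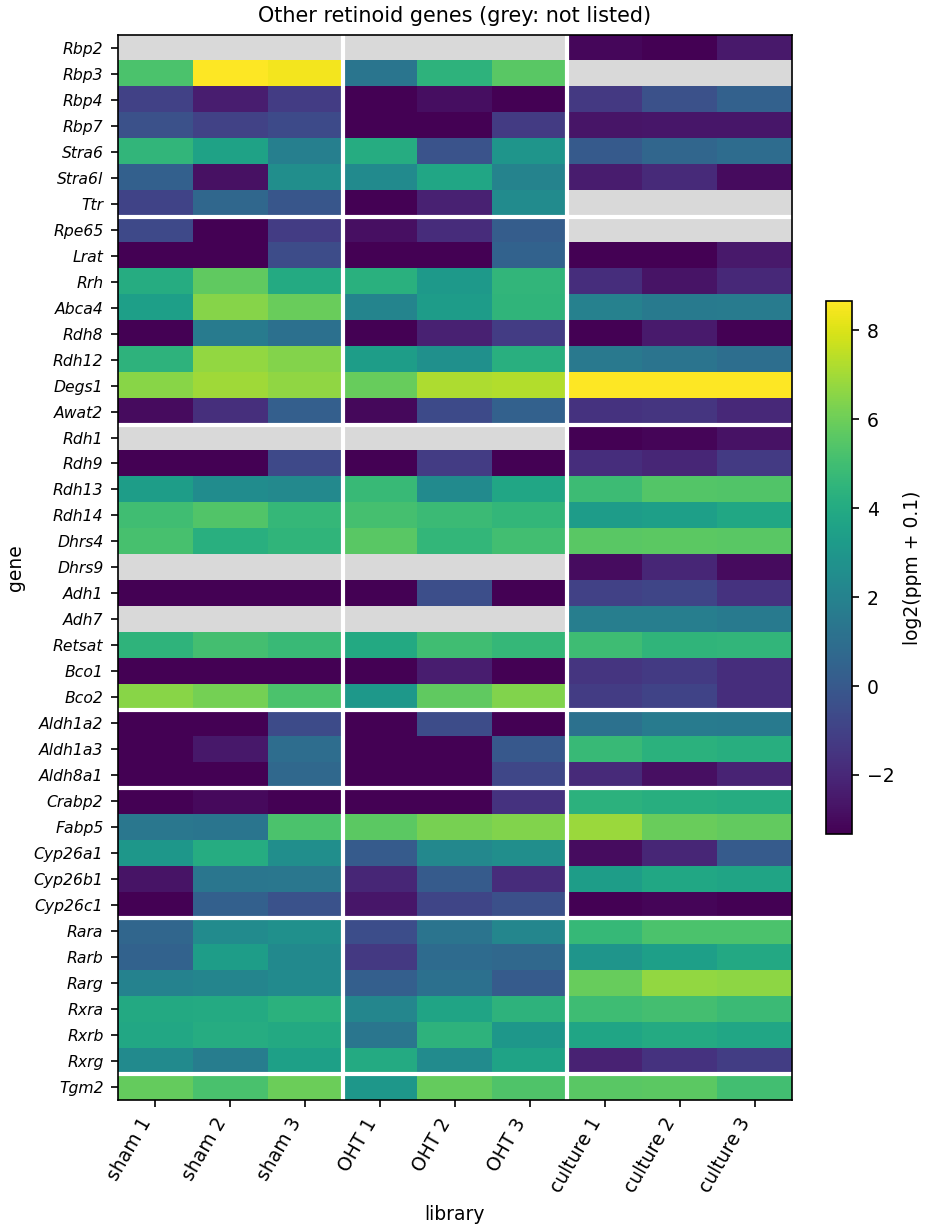
Levels of 41 other retinoid genes listed in either table, as log2 of ppm plus 0.1, in colour, by gene (rows, in blocks by role) and library (columns). Grey cells are not listed. Rbp3 is brightest in sham 2 and sham 3, Fabp5 is brighter in all OHT libraries than in sham 1 and sham 2, and Rarg and Degs1 are brightest in the cultures.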

How the data were processed

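RNA sequencing of 3 sham, 3 OHT and 3 primary culture libraries was analysed from 2 deposited tables, 1 for sorted cells and 1 for cultures. Per the submitters' processing notes, bcl2fastq 2.20, Trim Galore 0.6.6, FastQC 0.11.9 and STAR 2.7.1a were used with build mm39. The sources used here name no counting program, annotation or normalisation method. The deposited signal is 1 normalised count per gene and library: each column of sorted cells came out as whole reads divided by 1 factor (100% of values within 0.05 of a whole read). Gene symbols are those of the tables, and genes that share reads with pseudogenes could not be separated. Unused sample columns numbered 0.

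From these values log2(value + 1) was tested with limma 3.58.1 (variance trend, R 4.3.3) on sham and OHT libraries, for genes with a mean of at least 10, with Benjamini-Hochberg adjustment. Fold changes are on that scale, which understates low genes. Single values had exact two-sided permutation tests. Alternatives were other pseudocounts, filters and scalings, left-out libraries and 2 fits to the recovered whole reads, by DESeq2 1.42.0 and the quasi-likelihood test of edgeR 4.0.16. The scripts were tested on simulated data. Each group had 3 libraries, the sorted ones from pools of 4 retinas. Intervals and limits for 0 counts cover counting error only, 3 reads per library. Libraries of a group differed by more than counting noise, so no library was found to be deposited again, which does not show that they are independent samples.

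Named genes were all members, and other retinoid genes past the threshold, without overlap or among the 3 of highest mean in either table. Also named were the 5 genes nearest to Rlbp1 among genes with a mean of at least 100, with predicted genes and clone names skipped. The last were markers at 0 throughout a group: Lum, of the mural and fibroblast list, was at 0 in every sham library. Exceptions are marked where they stand, and 1 gene of the lists, part of their counts, is not reported here by itself. The marker lists also held 8 cone, 8 astrocyte, 10 amacrine and 8 endothelial genes, whose summed levels were 159 to 384, 435 to 2573, 20.6 to 28.7 and 223 to 490 ppm in sham and 214 to 575, 286 to 629, 1.60 to 14.9 and 116 to 206 ppm in OHT. The members and lists were chosen with earlier results of these data known.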

Additional observations from a re-analysis of the deposited data

How the results depend on the processing

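No member passed the test under any of 18 alternatives, which included edgeR and DESeq2, where DESeq2 gave Crabp1 no adjusted p and Rdh5 and Crabp1 were not tested at a mean of at least 100. Of other retinoid genes, 1 passed with the replicate block (Rbp3, adjusted p = 0.0464) and 2 in DESeq2, and 0 to 1 with 1 library left out. Over all genes 2 passed with the replicate block, 250 in DESeq2 and 0 to 12 with 1 library left out, 12 without sham 1 and 7 without sham 3. Same-numbered sham and OHT libraries did not deviate together (r = 0.08, -0.02 and -0.05 over 14403 genes). With 3 libraries per group this cannot show whether the numbers pair libraries. The number of members without overlap relative to Müller glia markers was 1, and 2 with the replicate block (all 3 differences of 1 sign), 2 with the microglia list, added after the data were seen, and 1 to 2 with 1 library left out.

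Direction changed in Rdh5 (0.14) and Rgr (0.19) under quantile normalisation, and in Rgr without sham 2 (0.19) or OHT 1 (0.25, from -1.61 to 0.25 with 1 library left out). Bco2 was 0.093 without OHT 1, from -1.19 to 0.093. Degs1 was -0.12 with library totals free of mitochondrial genes. The Rlbp1 ratio was 0.00058 against Glul, Slc1a3 and Aqp4, 0.046 against the summed list, 0.11 without sham 1, sham 2 or OHT 1, 0.09 without OHT 2 and -0.23 without sham 3, so from -0.23 to 0.11 with 1 library left out. That of Rdh10 was 0.01 without sham 3 and 0.51 without OHT 3, from -0.52 to 0.51. The cause was not tested.

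Mean levels in ppm moved with the total used, by over 1 SD for Dhrs3 (sham and OHT), Rdh5 and Rdh11 (sham) and Rdh10 and Aldh1a1 (culture), and 4 of 7 members had a higher mean in culture than in sorted cells under every total. Crabp1 had 0 to 44 reads in sorted libraries, which limits its precision.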
